A study of Solanum lycopersicum with 12 samples.

Results

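Cyclins, the replication machinery and kinesins were followed here as 1 set of genes through the onset of tomato ripening. A gene belonged to the set if its deposited description named an A-, B- or D-type cyclin, a cyclin-dependent kinase (CDK), minichromosome maintenance, DNA replication, replication factor C, proliferating cell nuclear antigen, DNA polymerase alpha, delta or epsilon, ribonucleoside-diphosphate reductase or kinesin, in any case of letters, and had at least 10 counts in 3 or more libraries. The wording took 206 of the 35882 features in the table, and 151 of these met the count rule. The other 55 held 0 to 76 counts over all libraries, and 24 of them had none. Just outside the rule, Solyc02g079370 and Solyc07g065210 reached 9 counts in their third-highest library, and just inside it Solyc06g064660 reached 11.

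RNA sequencing was done on fruit pericarp of Solanum lycopersicum, the fleshy wall of the tomato. The 4 groups of 3 libraries each were the mutant (cr) at breaker (38), wild type (A, here WT) at breaker, cr at mature green (35) and WT at mature green. Mature green fruit has reached full size, and breaker is the first change of colour. What the numbers 35 and 38 count is not stated, the mutated gene is not named in the labels, so no target gene could be checked, and nothing in the labels tells whether libraries came from separate fruits or plants. The tests therefore rest on library-to-library spread, which may be technical.

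D-type cyclins join CDKs to start the division cycle, A- and B-type cyclins act later in it, and CDK inhibitors hold the kinases back. Before DNA is copied, ORC, CDC6 and CDT1 load the MCM helicase onto origins, ribonucleotide reductase makes the deoxynucleotides, and replication factor C loads the PCNA ring that holds the polymerases to the template. Kinesins are motors that walk on microtubules, many of them in the spindle and in the phragmoplast that builds the new wall. In tomato pericarp most cell division belongs to early fruit growth, and the same machinery also serves endoreduplication, in which cells copy DNA without dividing.

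Depth was even, with 17703054 to 19426192 counts per library. Values below are counts scaled to library size with TMM factors (CPM) unless FPKM, a value per transcript length, is named. The ripening genes moved with the stage labels in both genotypes. Polygalacturonase PG2A, Solyc10g080210, which breaks down pectin, had 232.9, 695.8 and 1073.9 CPM in cr at breaker, 7987.2, 6626.6 and 9348.1 in WT at breaker, 7.88, 3.37 and 0.825 in cr at mature green, and 15.4, 15.2 and 75.1 in WT at mature green. Replicate 1 of cr at breaker was the lowest of its group for this gene, for the phytoene synthase PSY1 and for E8. Photosynthetic plastid genes summed to 972.5 to 1543.1 CPM in cr at breaker, 601.9 to 728.6 in WT at breaker, 2082.8 to 2419.8 in cr at mature green and 1887.2 to 2196.8 in WT at mature green. Seed storage and oil body genes, of which 25 of 52 had no count, summed to 123.1 to 153.2, 92.2 to 118.2, 34.0 to 44.0 and 33.3 to 195.5 CPM in the same groups. The wider seed list, which adds late embryogenesis abundant proteins and 2S albumins and of which 80 of 212 had no count, summed to 4170.8 to 5659.3, 2992.4 to 3284.1, 6757.2 to 8161.8 and 6210.9 to 9465.0 CPM, lower at breaker in each genotype and higher in cr than in WT at breaker. Of its 65 tested genes 10 were higher and 12 lower in cr at breaker. Epidermis genes, of which 9 of 36 had no count, summed to 1082.9 to 1527.9, 1940.4 to 2241.8, 353.6 to 665.8 and 802.1 to 873.8 CPM, below WT in cr at each stage, although 6 of 22 tested genes were higher and 3 lower in cr at breaker. Xylem sums overlapped between cr and WT at each stage, and phloem sums were 451.2 to 538.7 CPM in cr and 356.8 to 429.8 CPM in WT at breaker. The part of these markers in the results below was not tested.

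As a whole the set moved much as the rest of the transcriptome did, and its classes went different ways. In cr, 20 members were higher and 15 lower at breaker than at mature green by edgeR's quasi-likelihood test (adjusted p under 0.05), where 15.2% of the 19664 genes tested were higher and 13.5% lower. In WT, 32 were higher and 41 lower at breaker, against 23.4% and 24.9% of all genes. Between genotypes at breaker, 27 were higher and 24 lower in cr, where 14.0% and 11% of all genes were. At mature green only 2 were higher and 2 lower in cr, against 1.72% and 2.62% of all genes. The interaction, which is the stage change in cr minus that in WT, was called higher for 14 members and lower for 9, against 8.53% and 4.62% of all genes. The members' median log2 change was 0.07 between cr and WT at breaker, where the median of all genes was 0.00. Over the stages it was -0.03 in cr and -0.15 in WT, against a median near 0 for all genes in each. With no normalization factors the balance shifted to 41 higher and 13 lower in cr than in WT at breaker, to 16 higher and 22 lower over the stages in cr, to 20 higher and 54 lower over the stages in WT, and to 18 higher and 6 lower in the interaction. Upper quartile factors gave 30 higher and 17 lower in cr than in WT at breaker, and 22 higher and 48 lower over the stages in WT. Without factors the median of all genes itself moved to -0.19 over the stages in WT and to 0.13 between genotypes at breaker. Counts of all genes shifted the same way. Between genotypes at breaker 3969 were higher and 1331 lower in cr without factors, and 3222 and 1785 with upper quartile factors. Over the stages in WT 2846 were higher and 6784 lower without factors, and 3501 and 5844 with upper quartile factors.

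**Figure D1:**
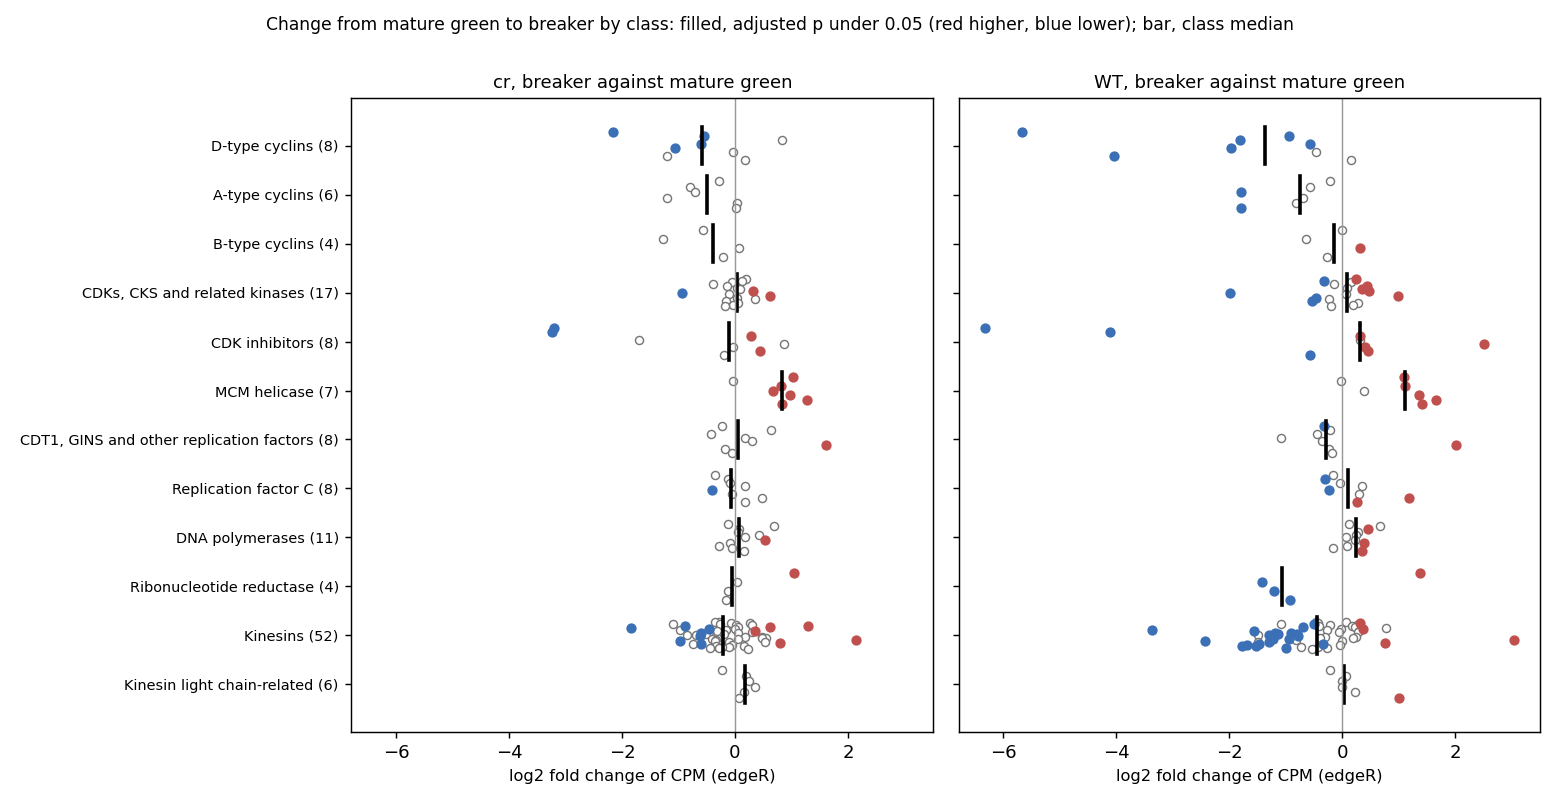
Log2 fold change of each member from mature green to breaker in cr (left) and WT (right), by class, with the number of members in brackets. Each circle is a gene, filled where edgeR's adjusted p was under 0.05 (red higher, blue lower at breaker), and the black bar is the class median. The MCM2 to MCM7 genes lie to the right in both genotypes, most D-type cyclins lie to the left, and the ribonucleotide reductase genes have a median of -0.04 in cr and -1.06 in WT.

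D-type cyclins, which couple growth signals to the start of the cycle, were lower at breaker. Of 8 members, 4 fell in cr (median log2 change -0.57) and 6 fell in WT (median -1.37), against 13.5% and 24.9% of all genes. None rose in either genotype. D-type cyclin-2, Solyc01g107730, which the table likens to Arabidopsis cyclin D3-3, had 3.55, 1.02 and 0.738 CPM in cr at breaker, 0.119, 0.350 and 0.121 in WT at breaker, 7.93, 6.75 and 9.32 in cr at mature green, and 13.1, 9.93 and 8.24 in WT at mature green. The breaker libraries lay below all mature green libraries, and those of WT were close to 0, with 10 counts over the 3 WT libraries. It fell by 2.16 ± 0.44 on the log2 scale in cr (± SE, adjusted p = 0.00280) and fell by 5.67 ± 0.60 in WT (adjusted p = 6.83e-06), and the interaction was 3.52 ± 0.78 (adjusted p = 0.0113). Replicate 1 of cr at breaker held most of the cr signal. Without it the fall in cr was -3.17 (adjusted p = 3.37e-05), the interaction 2.50 (adjusted p = 0.0124) and the difference between cr and WT at breaker 2.12, against 3.13 with it. Without replicate 2 of WT at breaker that difference was 3.82, the fall in WT -6.36 and the interaction 4.21.

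The other D-type cyclins differed from one another. The D6-1-like gene Solyc03g006670 had 2.38, 1.93 and 2.21 CPM in cr at breaker, 0.298, 0.584 and 1.09 in WT at breaker, 1.47, 0.844 and 1.36 in cr at mature green, and 1.75, 2.21 and 3.0 in WT at mature green. All cr breaker libraries were above all WT breaker libraries, and also above those of cr at mature green. Its change was 0.83 ± 0.38 in cr (adjusted p = 0.124), while it fell by 1.81 ± 0.41 in WT (adjusted p = 0.00275), and the interaction was 2.64 ± 0.56 (adjusted p = 0.00897). Cyclin D1_1, Solyc05g006050, averaged 4.0 ± 1.17 CPM in cr and 2.02 ± 0.838 CPM in WT at breaker (SD, n = 3 each). Its change was -1.06 in cr (edgeR adjusted p = 0.0175) and -1.97 in WT (adjusted p = 2.22e-04), and the cr call was lost when cr breaker replicate 2 or 3, or cr mature green replicate 3, was left out (adjusted p 0.0526 to 0.0743). The difference between genotypes at breaker, 0.98 higher in cr (adjusted p = 0.0415), was lost in 7 of the 12 fits that left out 1 library. The most abundant genes of the class per length, Solyc04g076040 (cyclinD5_1, a mean of 19.8 FPKM) and Solyc02g092980 (cyclin D3.1, 10.5 FPKM), fell in both genotypes. Solyc02g092980 changed by -0.55 in cr and -0.94 in WT, and Solyc04g076040 by -0.60 in cr and -0.58 in WT, the cr call of the second being lost without replicate 1 of cr at mature green (adjusted p = 0.0546). Cyclin D4_1, Solyc11g010460, was a rare transcript with 2 counts over the WT breaker libraries and 43 over the WT mature green ones, a mature green to breaker ratio of 19.1 (95% exact interval 4.98 to 163, counting error only). With 16 counts over the cr breaker libraries, it met the count rule largely through mature green libraries. Its fall, among the 6 D-type falls in WT, is therefore tied to that rule. Solyc12g088650 (cyclinD3_2) and Solyc05g051410 (cyclinD4_2) did not pass in any comparison, with changes in WT of 0.15 and -0.46.

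**Figure D2:**
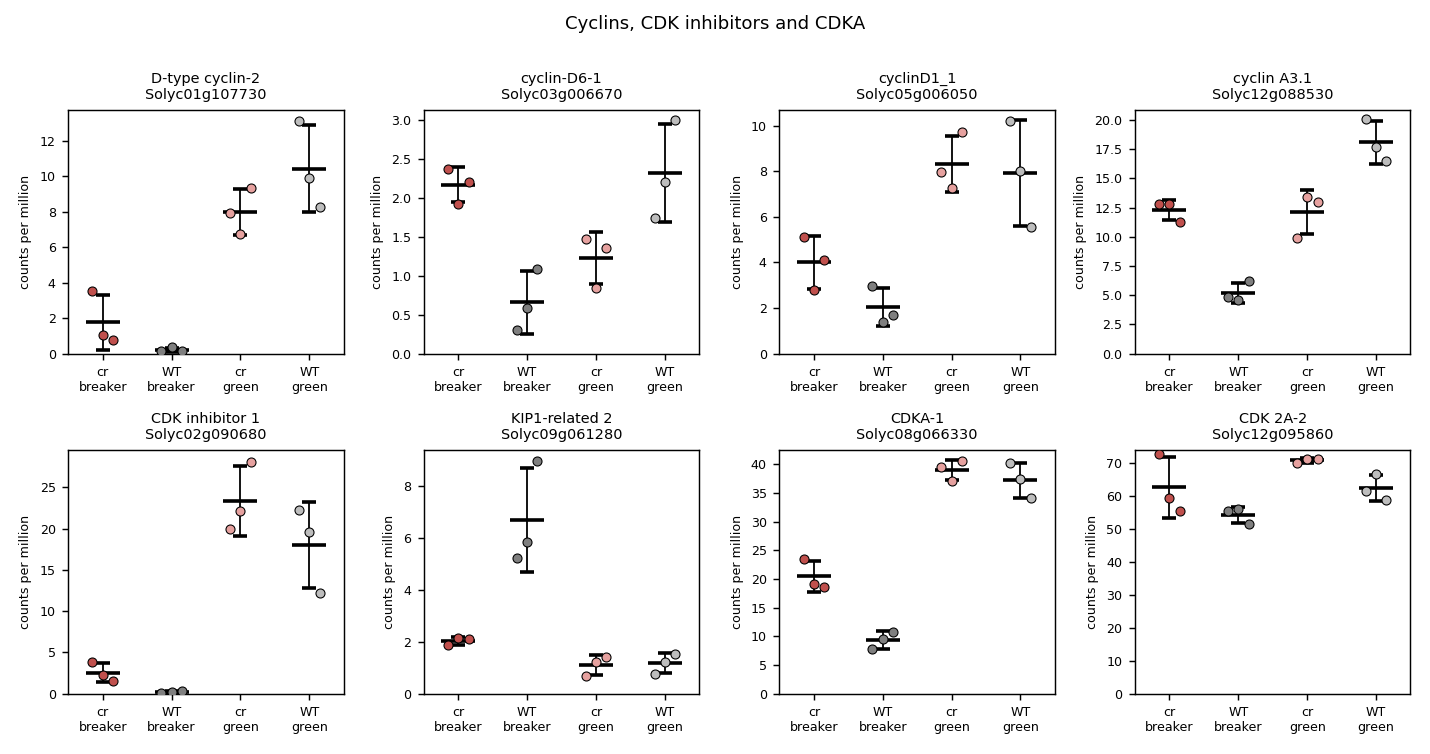
CPM of 8 cyclin, CDK inhibitor and CDK genes in each library, with cr left of WT at each stage, black bars for the group mean and error bars of 1 SD (n = 3). At breaker D-type cyclin-2 and CDK inhibitor 1 are higher in cr than in WT, where they are near 0, p27KIP1-related protein 2 is highest in WT at breaker, and CDKA-1 is lower at breaker while CDK 2A-2 stays between 51.5 and 72.8 CPM in every library.

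Among A-type cyclins, which act in DNA synthesis and early mitosis, all 6 had negative changes in WT and 2 passed. In WT 24.9% of all genes fell. Cyclin A3.1, Solyc12g088530, had 12.8, 12.8 and 11.3 CPM in cr at breaker, 4.88, 4.55 and 6.18 in WT at breaker, 9.93, 13.4 and 13.0 in cr at mature green, and 20.1, 17.7 and 16.5 in WT at mature green. Its level in cr was about the same at both stages, whereas WT was above cr at mature green and below it at breaker, with no overlap at either stage. The change was 0.02 ± 0.15 in cr (edgeR adjusted p = 0.933), the fall in WT -1.80 ± 0.16 (adjusted p = 1.72e-06) and the interaction 1.82 ± 0.22 (adjusted p = 3.36e-04). Between genotypes it was 1.24 ± 0.16 higher in cr at breaker (adjusted p = 1.59e-04) and 0.58 ± 0.15 lower in cr at mature green (adjusted p = 0.0464). That last call was lost in 10 of the 12 fits that left out 1 library, with adjusted p up to 0.160. Cyclin A2, Solyc06g065680, had a change of -0.70 in cr (adjusted p = 0.126) and fell in WT (-1.80, adjusted p = 0.00101). The most abundant A-type gene per length, Solyc01g044558 (cyclin A1-1, 37.0 FPKM), did not pass in any comparison. Solyc12g088500, a second A3 gene that lies near cyclin A3.1 on chromosome 12 (63402777 to 63404650, against 63418123 to 63420702, SL4.0 build), had 113 counts in all and did not pass either.

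B-type cyclins, which drive mitosis, were represented by 4 genes above the count rule of 8 with the wording. Solyc11g030550 (cyclin B2-2, 68.7 FPKM) and Solyc04g082430 did not pass in any comparison. Solyc07g066660, likened to B3-1, rose in WT by 0.32 (edgeR adjusted p = 0.00819), a call lost with no normalization factors (0.12, adjusted p = 0.319) and with upper quartile factors (0.21, adjusted p = 0.0621). Solyc04g081660 (cyclinB2_3) had 2.94, 2.89 and 0.965 CPM in cr and 4.11, 4.73 and 4.85 CPM in WT at breaker, lower in cr by 1.0 (adjusted p = 0.0305), a call lost without any one of the 3 WT breaker libraries (adjusted p 0.0508 to 0.0787) and with no normalization factors (adjusted p = 0.0588). Further cyclin and CDK genes whose descriptions are worded otherwise, such as G2/mitotic-specific cyclin or cell division control protein 2 homolog, gave 8 tested genes. Of these 1 fell in cr and 4 fell in WT, against 13.5% and 24.9% of all genes. None rose in WT, and 3 were higher in cr at breaker, against 14.0% of all genes. Among them a homolog C of cell division control protein 2 averaged 7.65 ± 0.842 CPM in cr and 4.47 ± 1.2 CPM in WT at breaker, and 11.4 ± 1.16 in cr and 9.94 ± 1.24 in WT at mature green (SD, n = 3 each). It fell by 0.58 on the log2 scale in cr and by 1.15 in WT.

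CDK genes gave calls in both directions, as the genes tested did as a whole. CDKA is the plant counterpart of the yeast cell cycle kinase, CDKD activates other CDKs, and CDKC and CDKE act on transcription. Among all genes tested 15.2% rose and 13.5% fell in cr, and 23.4% rose and 24.9% fell in WT. Of 17 genes for CDKs, their CKS partner and related proteins, 2 rose and 1 fell in cr. In WT 5 of them rose and 4 fell. The balance in WT turned to 3 higher and 6 lower with upper quartile factors and to 2 higher and 6 lower with no factors, and that in cr to 2 higher and 3 lower with no factors. CDKA-1, Solyc08g066330, had 23.5, 19.2 and 18.7 CPM in cr at breaker, 7.74, 9.52 and 10.8 in WT at breaker, 39.5, 37.1 and 40.6 in cr at mature green, and 40.2, 37.4 and 34.1 in WT at mature green. The mature green groups overlapped and the 2 breaker groups did not, with cr between WT breaker and the green fruit. It fell by 0.93 ± 0.12 in cr (edgeR adjusted p = 1.67e-04) and fell by 1.99 ± 0.13 in WT (adjusted p = 2.04e-07), with an interaction of 1.06 ± 0.18 (adjusted p = 0.00241). The other CDKA gene, Solyc12g095860, had 72.8, 59.4 and 55.4 CPM in cr and 55.3, 56.0 and 51.5 CPM in WT at breaker, and did not pass in any comparison (stage change -0.18 in cr and -0.20 in WT). CDKD-1, Solyc08g081280, averaged 28.1 ± 5.71 CPM in cr and 42.1 ± 3.17 CPM in WT at breaker, and 18.2 ± 0.830 CPM in cr and 21.1 ± 1.69 CPM in WT at mature green (SD, n = 3 each). It rose by 0.63 in cr and 0.99 in WT and was 0.58 lower in cr than in WT at breaker (adjusted p = 0.00657). The CKS gene Solyc11g066470 was the most abundant of the class per length, at 160.1 FPKM. It was 0.40 higher in cr at breaker (adjusted p = 0.0458), a call lost in 8 of the 12 fits that left out 1 library, with adjusted p up to 0.166.

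CDK inhibitors went both ways. The KRP inhibitors bind cyclin-CDK pairs, and the SIAMESE-related (SMR) proteins are known in Arabidopsis for promoting endoreduplication. CDK inhibitor 1, Solyc02g090680, had 3.80, 2.25 and 1.53 CPM in cr at breaker, 0.119, 0.234 and 0.303 in WT at breaker, 19.9, 22.1 and 28.1 in cr at mature green, and 22.2, 19.6 and 12.2 in WT at mature green. The mature green groups overlapped, and at breaker every cr library was above every WT library. It fell by 3.20 ± 0.30 in cr (edgeR adjusted p = 1.59e-05) and fell by 6.32 ± 0.43 in WT (adjusted p = 2.54e-07), with an interaction of 3.13 ± 0.58 (adjusted p = 0.00452). Solyc03g044480, likened to the same inhibitor, held 5 counts in cr and 2 in WT over the breaker libraries, against 55 in cr and 45 in WT over the mature green ones. No breaker library could thus hold the 10 counts of the rule, and the gene entered the set through mature green libraries alone. Its falls at breaker are therefore tied to that rule. The mature green to breaker ratio was 10.1 in cr (95% exact interval 4.06 to 32.2) and 20 in WT (5.22 to 170), covering counting error only. Its fitted change was -4.11 in WT (edgeR adjusted p = 0.00154) and -6.92 without replicate 3 of WT at breaker, and -3.24 in cr (adjusted p = 0.00499) and -2.58 without replicate 3 of cr at mature green.

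The p27KIP1-related genes moved the other way. p27KIP1-related protein 2, Solyc09g061280, had 1.87, 2.14 and 2.10 CPM in cr at breaker, 5.24, 5.84 and 8.97 in WT at breaker, 0.685, 1.24 and 1.41 in cr at mature green, and 0.773, 1.21 and 1.53 in WT at mature green. WT at breaker stood above the other 3 groups, which lay between 0.685 and 2.14 CPM. Its change was 0.87 ± 0.34 in cr (edgeR adjusted p = 0.0684), while it rose by 2.51 ± 0.33 in WT (adjusted p = 3.92e-05). It was 1.71 lower in cr than in WT at breaker (adjusted p = 0.00160), and the interaction was -1.64 (adjusted p = 0.0358), a call lost in 9 of the 12 fits that left out 1 library (adjusted p up to 0.0927). p27KIP1-related protein 1, Solyc09g091780, rose by 0.40 in WT (adjusted p = 0.0295) and was 0.47 lower in cr at breaker (adjusted p = 0.0271). Both calls were lost with no normalization factors, with upper quartile factors and in 4 of the 12 fits that left out 1 library. SMR3, Solyc11g007860, was the most abundant inhibitor gene per length at 146.2 FPKM and rose by 0.45 in cr (adjusted p = 0.00426) and 0.45 in WT (adjusted p = 0.00192). The CDK inhibitor gene Solyc12g098310 fell in WT (-0.58, adjusted p = 0.0161), a call lost without WT breaker replicate 2 or WT mature green replicate 2. Solyc09g010980 was lower in cr at breaker (-1.95, adjusted p = 0.0359), a call lost without WT breaker replicate 2 or 3 or cr breaker replicate 1 or 3, while without cr breaker replicate 2 the difference was -2.76.

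The replicative helicase genes were higher at breaker. Of 7 MCM genes 6 rose in cr and 5 in WT, none fell in either, and 5 were lower in cr than in WT at breaker. Among all genes 15.2% rose in cr and 23.4% in WT, and 11% were lower in cr at breaker. MCM2 to MCM7 form the ring that unwinds DNA at the fork, and each subunit is encoded here by 1 gene above the count rule. MCM2, Solyc11g040120, had 51.0, 73.2 and 84.0 CPM in cr at breaker, 134.6, 145.1 and 153.3 in WT at breaker, 38.2, 39.1 and 40.0 in cr at mature green, and 56.5, 53.7 and 52.4 in WT at mature green. Every breaker library lay above the mature green libraries of its own genotype, and cr was below WT at each stage with no overlap. It rose by 0.83 ± 0.14 in cr (edgeR adjusted p = 9.23e-04) and rose by 1.41 ± 0.14 in WT (adjusted p = 4.13e-06). At breaker it was 1.06 ± 0.14 lower in cr than in WT (adjusted p = 1.77e-04).

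MCM5, Solyc07g005020, had 26.2, 42.2 and 56.0 CPM in cr at breaker, 66.2, 77.6 and 73.2 in WT at breaker, 17.1, 18.6 and 15.7 in cr at mature green, and 23.6, 22.6 and 23.0 in WT at mature green. It had the largest rise of the complex, 1.28 ± 0.20 in cr and 1.65 ± 0.20 in WT. MCM4, Solyc01g110130, averaged 38.7 ± 12.5 CPM in cr and 65.3 ± 9.30 CPM in WT at breaker, and 21.9 ± 1.55 CPM in cr and 30.2 ± 3.29 CPM in WT at mature green (SD, n = 3 each). MCM6, Solyc02g082180, averaged 26.0 ± 6.46 CPM in cr and 44.5 ± 5.75 CPM in WT at breaker, and 13.3 ± 0.694 CPM in cr and 17.4 ± 1.10 CPM in WT at mature green. The 4 genes MCM2, MCM4, MCM5 and MCM6 passed in the stage change of each genotype and in the comparison of cr with WT at breaker, where they were 0.76 to 1.06 lower in cr, and these calls held in all 12 fits that left out 1 library. In all 4 genes replicate 1 of cr at breaker was the lowest of its group and replicate 3 the highest.

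MCM7 and MCM3 followed with smaller differences between genotypes. MCM7, Solyc01g079500, averaged 15.3 ± 2.83 CPM in cr and 22.3 ± 5.37 CPM in WT at breaker, and 7.54 ± 1.01 CPM in cr and 10.5 ± 0.603 CPM in WT at mature green (SD, n = 3 each). It rose by 1.02 in cr (edgeR adjusted p = 0.00141) and 1.09 in WT (adjusted p = 2.82e-04), and was 0.55 lower in cr at breaker (adjusted p = 0.0387), a call lost in 5 of the 12 fits that left out 1 library, with no normalization factors and with upper quartile factors. A same-strand gene overlaps it, with 528 counts against its own 3032. The MCM3 homolog 2, Solyc02g070780, had 18.9, 18.2 and 30.7 CPM in cr and 19.7, 23.9 and 31.9 CPM in WT at breaker, and the 2 groups overlapped. It rose in cr by 0.68 (adjusted p = 0.0232), a call lost without cr breaker replicate 3 (0.39, adjusted p = 0.125) without any one of the 3 cr mature green libraries or with no normalization factors (0.58, adjusted p = 0.0535), and its change in WT was 0.38 (adjusted p = 0.129). From the highest down, mean levels of all 6 genes had the same order, WT breaker, cr breaker, WT mature green, cr mature green. At mature green the 6 genes were 0.39 to 0.48 lower in cr, and none passed in edgeR, where 5 of the 7 MCM genes had an unadjusted p under 0.05, while DESeq2 called 1 lower. No MCM gene passed the interaction in edgeR, with 1 at an unadjusted p under 0.05 and 1 called lower by DESeq2. MCM9, Solyc01g105530, a relative that is not part of the ring, had 4.43 to 7.44 CPM in all libraries and did not pass in any comparison.

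**Figure D3:**
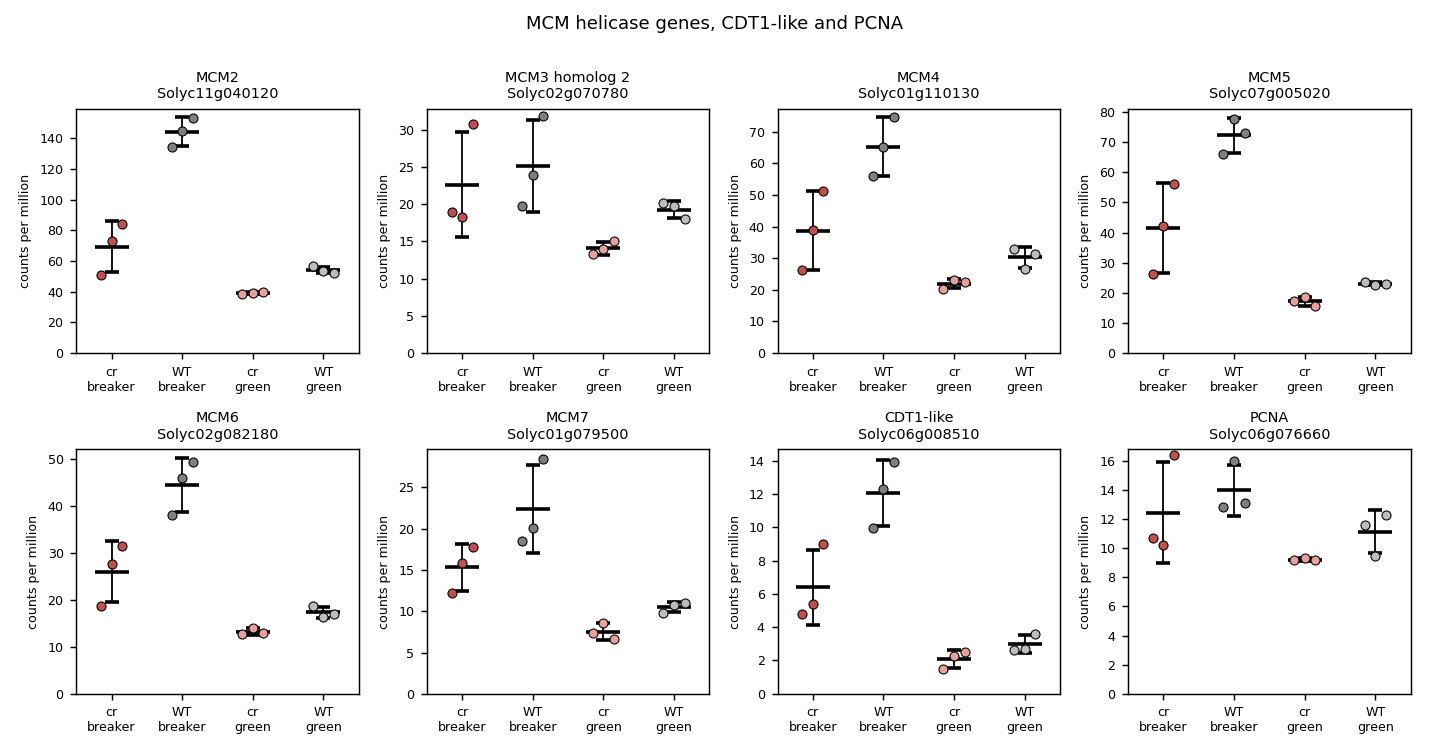
CPM of the 6 MCM2 to MCM7 genes, a CDT1-like gene and PCNA in each library, with cr left of WT at each stage, black bars for the group mean and error bars of 1 SD (n = 3). MCM2, MCM4, MCM5 and MCM6 are highest in WT at breaker with cr at breaker below, whereas the breaker groups of MCM3 and PCNA overlap.

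Loading factors did not move as 1 group. The rule took 3 CDT1-like genes, of which Solyc03g019960 did not pass in any comparison. A CDT1-like gene, Solyc06g008510, had 4.81, 5.41 and 8.97 CPM in cr at breaker, 9.94, 12.3 and 13.9 in WT at breaker, 1.47, 2.28 and 2.48 in cr at mature green, and 2.63, 2.68 and 3.60 in WT at mature green. The breaker libraries of each genotype were above all its mature green libraries, as for the MCM genes. It rose by 1.62 ± 0.28 in cr (edgeR adjusted p = 9.78e-04) and rose by 2.02 ± 0.27 in WT (adjusted p = 4.78e-05). It was 0.91 lower in cr at breaker (adjusted p = 0.0193), a call lost without WT breaker replicate 2 or 3 or cr breaker replicate 1 or 2. A second CDT1-like gene, Solyc01g006140, was more abundant per length (14.4 FPKM) and fell by 0.33 in WT (adjusted p = 0.0248), a call lost without any one of 4 libraries, WT breaker replicates 1 and 3 and WT mature green replicates 2 and 3. It was 0.34 higher in cr at breaker (adjusted p = 0.0367), which did not hold without any one of the 3 WT breaker libraries or cr breaker replicate 1. The GINS subunits PSF1, PSF2, PSF3 and SLD5, which travel with the helicase, did not pass in any comparison with TMM factors. SLD5 (Solyc11g065900) was the most abundant at 42.4 FPKM. The class of 8 genes that holds the GINS and CDT1-like genes depended on scaling. Over the stages in WT 1 rose and 1 fell with TMM factors, and 1 rose and 5 fell with no factors. The count higher in cr at breaker went from 1 to 4 with no factors. Of 8 origin recognition and loading genes outside the rule, 1 fell in cr and 5 in WT, against 13.5% and 24.9% of all genes. None rose in WT, and 2 were higher in cr at breaker, against 14.0% of all genes. ORC6, Solyc05g007450, had 2.03, 2.63 and 2.84 CPM in cr at breaker and 0.298, 0.642 and 1.15 CPM in WT at breaker, and its interaction was 2.10 (adjusted p = 0.0194). The CDC45 homolog Solyc09g059440, a partner of MCM and GINS, averaged 2.68 ± 0.354 CPM in cr and 1.61 ± 0.206 CPM in WT at breaker (SD, n = 3 each) and fell by 1.29 in WT.

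Clamp loader genes gave calls both ways in WT, and the clamp gene gave none. PCNA, Solyc06g076660, the sliding clamp, had 10.7, 10.2 and 16.4 CPM in cr at breaker, 12.8, 16.0 and 13.1 in WT at breaker, 9.15, 9.33 and 9.17 in cr at mature green, and 11.6, 9.46 and 12.3 in WT at mature green. The breaker groups overlapped, cr at mature green lay below the other groups, and the WT breaker libraries lay above those of WT at mature green. No comparison passed in edgeR or DESeq2 (stage change 0.43 ± 0.18 in cr, edgeR adjusted p = 0.0942, and 0.33 ± 0.18 in WT, adjusted p = 0.150). Of 8 replication factor C genes, 2 rose and 2 fell in WT, where 23.4% of all genes rose and 24.9% fell. The largest change was in Solyc09g091650, likened to CTF18, the subunit of an alternative clamp loader, which averaged 8.78 ± 2.23 CPM in cr and 14.1 ± 2.48 CPM in WT at breaker, and 6.29 ± 0.878 CPM in cr and 6.23 ± 0.316 CPM in WT at mature green (SD, n = 3 each). Its change was 0.48 in cr (edgeR adjusted p = 0.0848), while it rose by 1.18 in WT (adjusted p = 2.76e-04), and was 0.69 lower in cr at breaker (adjusted p = 0.0195), a call lost without WT breaker replicate 3 or cr breaker replicate 1 or 2. The abundant clamp loader genes Solyc06g060150 (26.5 FPKM) and Solyc11g012820 (25.7 FPKM) had stage changes in WT of -0.05 and 0.26, the second passing (adjusted p = 0.0450) and lost in 7 of the 12 fits that left out 1 library, and RFC1, Solyc07g005880, fell by 0.40 in cr.

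Among 11 polymerase genes 1 rose in cr and 3 in WT, where 15.2% and 23.4% of all genes rose, and none fell in either. With upper quartile factors 0 rose in cr and 2 in WT, with no factors 0 and 1, and DESeq2 called 2 in cr and 4 in WT. The delta catalytic subunit, Solyc10g081250, had 28.4, 32.8 and 31.5 CPM in cr at breaker, 38.6, 40.1 and 38.6 in WT at breaker, 32.0, 34.8 and 31.1 in cr at mature green, and 32.1, 29.3 and 28.5 in WT at mature green. WT at breaker lay above the other groups, which overlapped. The change in cr was -0.08, the rise in WT 0.38 (edgeR adjusted p = 0.00273) and the interaction -0.46 (adjusted p = 0.0270). The delta small subunit, Solyc03g063340, the most abundant of the class at 52.5 FPKM, had a change of 0.07 in cr and rose by 0.46 in WT (adjusted p = 2.22e-04), with an interaction of -0.39 (adjusted p = 0.0277). With no normalization factors the rise of the catalytic subunit in WT was lost (0.18, adjusted p = 0.0997), and both interactions were lost, that of the catalytic subunit in 7 and that of the small subunit in 6 of the 12 fits that left out 1 library. The alpha catalytic subunit, Solyc02g093300, had stage changes of 0.70 in cr and 0.66 in WT that did not pass in edgeR (adjusted p = 0.0693 and 0.0554). An opposite-strand gene with 14630 counts overlaps it, and whether the counting used strand is not stated. The 2 epsilon catalytic genes, Solyc11g067110 and Solyc11g067140, are neighbours on chromosome 11 (50877924 to 50884770 and 50900756 to 50916141, SL4.0) and did not pass in any comparison.

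Ribonucleotide reductase, the enzyme that turns ribonucleotides into deoxynucleotides, showed opposite changes among its subunits. Both large subunit genes and 1 small chain gene passed no stage test in cr and fell in WT, and the other small chain gene rose in both. The large subunit gene Solyc04g012060 had 15.3, 17.8 and 27.2 CPM in cr at breaker, 11, 12.1 and 15 in WT at breaker, 23.6, 22.9 and 19.4 in cr at mature green, and 32.5, 28.7 and 27.0 in WT at mature green. Its change was -0.13 ± 0.19 in cr (edgeR adjusted p = 0.647), while it fell by 1.21 ± 0.19 in WT (adjusted p = 1.81e-04), with an interaction of 1.08 ± 0.27 (adjusted p = 0.0184). At breaker it was 0.66 higher in cr (adjusted p = 0.0230), a call lost without WT breaker replicate 1 or 2 or cr breaker replicate 3 (adjusted p 0.0753 to 0.0892). The large subunit gene Solyc04g051350 had 24.0, 21.2 and 28.2 CPM in cr and 12.4, 16.4 and 16.2 CPM in WT at breaker, with no overlap. Its change was -0.15 ± 0.16 in cr, while it fell by 0.92 ± 0.16 in WT (adjusted p = 4.37e-04), and its interaction of 0.77 (adjusted p = 0.0405) was lost in 9 of the 12 fits that left out 1 library.

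The small chain gene Solyc02g094160 had 16.4, 19.7 and 20.4 CPM in cr at breaker, 7.68, 9.28 and 11.2 in WT at breaker, 20.1, 17.2 and 17.4 in cr at mature green, and 27.7, 24.9 and 23.4 in WT at mature green. The 2 cr groups overlapped and lay between the WT groups. Its change was 0.04 ± 0.14 in cr (edgeR adjusted p = 0.851), while it fell by 1.43 ± 0.14 in WT (adjusted p = 4.85e-06), with an interaction of 1.47 ± 0.20 (adjusted p = 6.59e-04) and a difference of 1.0 ± 0.15 between cr and WT at breaker (adjusted p = 3.49e-04). Small chain A, Solyc01g080210, had 17.1, 18.3 and 28.6 CPM in cr at breaker, 37.6, 31.2 and 24.4 in WT at breaker, 11.4, 10.7 and 8.88 in cr at mature green, and 12.1, 10 and 14.0 in WT at mature green. Every breaker library lay above every mature green library. It rose by 1.05 ± 0.21 in cr (adjusted p = 0.00288) and rose by 1.37 ± 0.21 in WT (adjusted p = 1.53e-04), and the difference between cr and WT at breaker was -0.54, which did not pass in edgeR (adjusted p = 0.0694) and was called lower in cr by DESeq2. Per length the small chain genes, at 18 FPKM for Solyc02g094160 and 11.1 FPKM for Solyc01g080210, were above the large subunit genes, at 7.30 FPKM for Solyc04g012060 and 8.24 FPKM for Solyc04g051350.

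**Figure D4:**
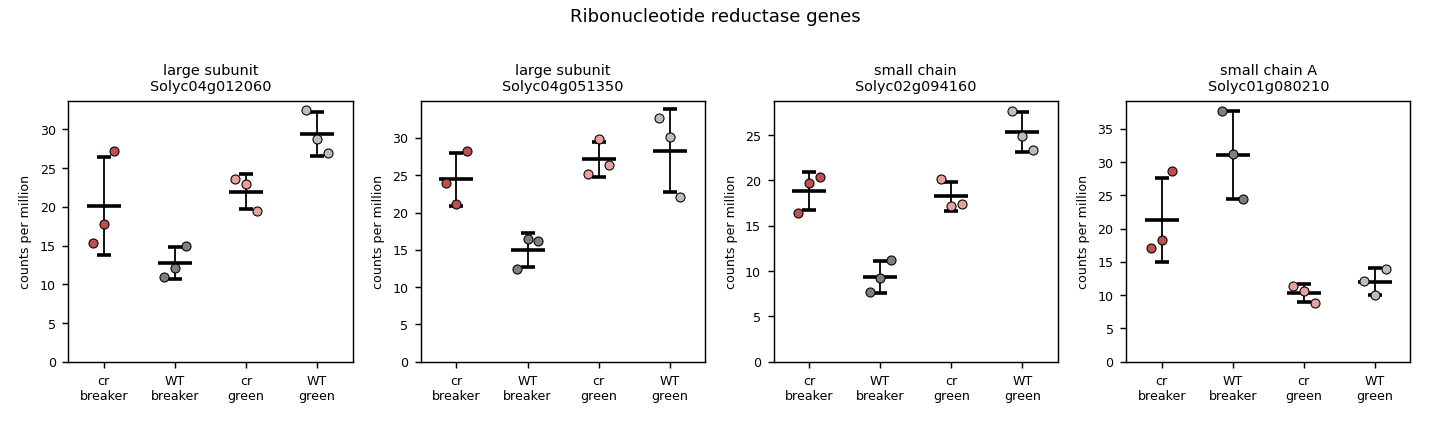
CPM of the 4 ribonucleotide reductase genes in each library, with cr left of WT at each stage, black bars for the group mean and error bars of 1 SD (n = 3). The first 3 genes are lowest in WT at breaker, with means of 9.39 to 15 CPM, while small chain A is highest there, at 31.1 CPM.

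Kinesins were the largest class, with 52 genes, and fell in WT more often than they rose. In cr 7 were lower and 5 higher at breaker (median log2 change -0.21), and in WT 20 were lower and 4 higher (median -0.45). At breaker 14 were higher and 4 lower in cr than in WT. Among all genes 13.5% fell and 15.2% rose in cr, and 24.9% fell and 23.4% rose in WT. Between genotypes at breaker 14.0% of all genes were higher and 11% lower in cr. With no normalization factors the kinesin counts were 26 lower and 2 higher over the stages in WT, and 17 higher and 1 lower in cr at breaker. Those of all genes shifted too, to 6784 lower and 2846 higher in WT, and 3969 higher and 1331 lower in cr at breaker. Of the KIN-5 genes, whose products push spindle poles apart, none of 6 fell in cr and 4 fell in WT, and 4 were higher in cr at breaker. Solyc11g072820 (KIN-5D) had 33.4, 32.1 and 25.5 CPM in cr at breaker, 13.9, 13.3 and 19.2 in WT at breaker, 37.7, 36.9 and 40.9 in cr at mature green, and 43.8, 45.4 and 44.2 in WT at mature green. Its change was -0.34 ± 0.13 in cr (edgeR adjusted p = 0.0694), while it fell by 1.52 ± 0.14 in WT (adjusted p = 2.02e-06), with an interaction of 1.18 ± 0.19 (adjusted p = 0.00194). The other KIN-5D gene, Solyc06g075580, averaged 27.1 ± 3.66 CPM in cr and 17.0 ± 6.62 CPM in WT at breaker (SD, n = 3 each) and fell by 1.14 in WT, with an interaction of 0.63 that did not pass (adjusted p = 0.173). The KIN-5C gene Solyc09g010060 fell by 1.23 in WT and had an interaction of 1.28 (adjusted p = 0.0375) that was lost in 9 of the 12 fits that left out 1 library.

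Among KIN-7 genes, a family that includes kinesins of cell plate formation, Solyc10g054080, described as a mitochondrial KIN-7D, changed most. It had 18.2, 16.5 and 20.4 CPM in cr at breaker, 5.42, 5.49 and 8.78 in WT at breaker, 40.7, 34.7 and 33.7 in cr at mature green, and 33.6, 40.4 and 32.3 in WT at mature green. The mature green groups overlapped, and cr at breaker lay between them and WT at breaker. It fell by 0.98 ± 0.16 in cr (edgeR adjusted p = 7.60e-04) and fell by 2.43 ± 0.18 in WT (adjusted p = 4.19e-07), with an interaction of 1.45 ± 0.24 (adjusted p = 0.00208). The KIN-7D gene described as chloroplastic, Solyc03g053080, was the 1 member that fell in cr and rose in WT. It had 13.8, 15.6 and 15.2 CPM in cr at breaker, 17.3, 18.4 and 21.9 in WT at breaker, 18.8, 20.4 and 21.8 in cr at mature green, and 15.7, 14.9 and 14.1 in WT at mature green. Its change was -0.45 ± 0.11 in cr (adjusted p = 0.00983) and 0.37 ± 0.11 in WT (adjusted p = 0.0176), with an interaction of -0.82 ± 0.16 (adjusted p = 0.00591). With upper quartile or no normalization factors the rise in WT was lost (0.26, adjusted p = 0.0834, and 0.17, adjusted p = 0.278), and so was it without replicate 3 of WT at breaker or at mature green. At mature green it was 0.45 higher in cr (adjusted p = 0.0434), a call lost in 9 of the 12 fits that left out 1 library.

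KIN-14 kinesins walk towards the minus end of the microtubule. Against 24.9% of all genes falling and 23.4% rising in WT, 6 of 13 fell there while 1 rose. The exception, Solyc09g075480, likened to KIN-14I, had 10.1, 18.7 and 21.2 CPM in cr at breaker, 65.4, 65.1 and 75.2 in WT at breaker, 4.26, 3.18 and 3.88 in cr at mature green, and 6.19, 7.15 and 11.6 in WT at mature green. Levels in cr were below WT at each stage with no overlap, and in each genotype the breaker libraries were above the mature green ones. Replicate 1 of cr at breaker lay within the range of WT at mature green. It rose by 2.14 ± 0.28 in cr (edgeR adjusted p = 1.44e-04) and rose by 3.04 ± 0.26 in WT (adjusted p = 1.41e-06), and was 2.04 ± 0.25 lower in cr at breaker (adjusted p = 1.09e-04). At mature green it was 1.14 lower in cr (adjusted p = 0.0430), a call lost in 8 of the 12 fits that left out 1 library, and its interaction of -0.91 did not pass (adjusted p = 0.136). KIN-14B, Solyc11g010560, the most abundant kinesin gene per length at 28.7 FPKM, fell by 0.60 in cr and 0.35 in WT and was 0.43 higher in cr at mature green (adjusted p = 0.0208), the last lost in 5 of the 12 fits. Solyc06g009780, also likened to KIN-14I, fell by 1.19 in WT.

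**Figure D5:**
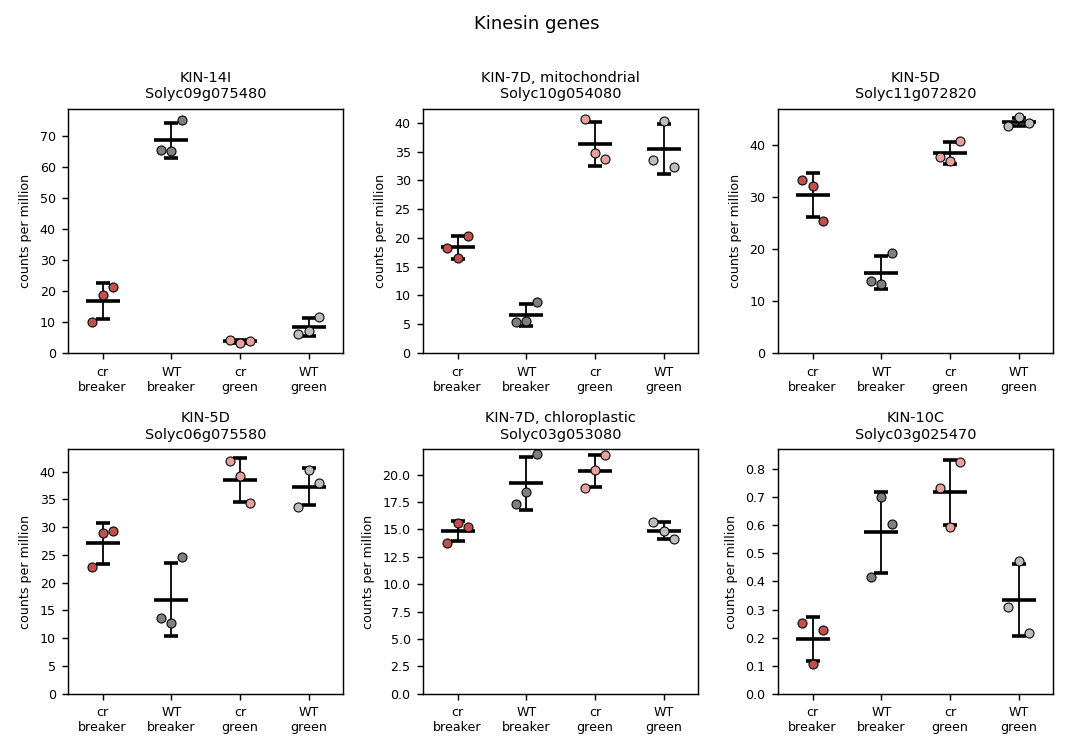
CPM of 6 kinesin genes in each library, with cr left of WT at each stage, black bars for the group mean and error bars of 1 SD (n = 3). KIN-14I stands at 65.1 to 75.2 CPM in WT at breaker and at most 21.2 CPM in the other groups, while the mitochondrial KIN-7D and the KIN-5D genes are lowest in WT at breaker.

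Some of the larger log2 changes among kinesins rested on few counts. KIN-4C, Solyc04g076310, related to Arabidopsis FRA1, held 36 counts in cr and 7 in WT at breaker, summed over libraries, or 4.63-fold more in cr at equal depth (95% exact interval 2.03 to 12.3, counting error only). Its change was -0.98 in cr (edgeR adjusted p = 0.117), it fell by 3.37 in WT (adjusted p = 2.55e-04), and the interaction of 2.39 (adjusted p = 0.0466) was lost in 9 of the 12 fits that left out 1 library. Without replicate 1 of WT at breaker the fall in WT was -3.97 and the interaction 2.99. An opposite-strand gene with 5144 counts overlaps it. KIN-10C, Solyc03g025470, with 103 counts in all, had 0.253, 0.107 and 0.227 CPM in cr and 0.417, 0.701 and 0.606 CPM in WT at breaker, and an interaction of -2.61 (adjusted p = 0.0226), lost in 6 of the 12 fits. KIN-UC, Solyc11g008350, rose by 0.79 in cr and by 0.76 in WT, and the KIN-12 genes, a family known from the phragmoplast, gave 1 call in 6, a fall of 1.68 in WT for Solyc11g071730. Of 6 kinesin light chain-related genes 1 passed. Solyc09g066290 averaged 17.1 ± 3.75 CPM in cr and 29.2 ± 3.73 CPM in WT at breaker, and 16.3 ± 1.63 CPM in cr and 14.5 ± 1.29 CPM in WT at mature green (SD, n = 3 each), and its interaction was -0.95 (adjusted p = 0.0131). The light chain-related genes Solyc08g008457 and Solyc08g008470 overlap on opposite strands on chromosome 8 (2853426 to 2855656 and 2853432 to 2863904, SL4.0), so without the strand setting their counts cannot be told apart.

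The rule also took 9 genes by wording alone, among them a cyclin-D1-binding protein and a calcyclin-binding protein that are no part of the replication machinery. Of these, Solyc08g016670, the calcyclin-binding protein, had 39.5, 43.1 and 42.1 CPM in cr and 89.1, 91.5 and 53.1 CPM in WT at breaker. It rose by 0.68 in cr and 1.90 in WT (edgeR adjusted p = 0.0156 and 4.73e-06), with an interaction of -1.22 (adjusted p = 0.00988), and the rise in cr was lost without cr mature green replicate 2 or 3. The cyclin-D1-binding protein, Solyc05g008520, had 28.1, 29.7 and 30.3 CPM in cr and 40.8, 49.7 and 39.6 CPM in WT at breaker, and an interaction of -0.67 (adjusted p = 0.0112). The interaction of Solyc03g112570, -0.65 (adjusted p = 0.0342), was lost in 8 of the 12 fits that left out 1 library and with no normalization factors (-0.55, adjusted p = 0.0798).

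Lists of partner genes chosen from the descriptions gave the setting of these changes. E2F and DP proteins bind the promoters of replication genes, some as activators and some as repressors, and the retinoblastoma-related protein holds E2F back. Of the 11 genes taken by these words, 2 rose in cr (18.2%), and 6 rose (54.5%) and 1 fell in WT. Among them 1 was higher and 4 were lower (36.4%) in cr at breaker. Among all genes 15.2% rose in cr and 23.4% rose in WT, so the share rising in cr was close to that of all genes. At breaker 14.0% of all genes were higher and 11% lower in cr. E2FA, Solyc01g007760, had 37.0, 43.0 and 44.6 CPM in cr at breaker, 59.8, 59.7 and 64.0 in WT at breaker, 29.9, 30.7 and 33.8 in cr at mature green, and 34.8, 33.4 and 31.5 in WT at mature green. It rose by 0.40 in cr and by 0.88 in WT (edgeR adjusted p = 0.00560 and 5.94e-06), with an interaction of -0.48 (adjusted p = 0.0277), and E2FC, Solyc04g081350, rose by 1.52 in WT. The genes that rose in WT also include the retinoblastoma-related gene Solyc09g091280 (0.46) and Solyc08g076130 (0.59), which the table also describes as a vacuolar protein sorting protein. Of 28 primase, ligase, replication protein A and topoisomerase genes 4 fell and 2 rose in cr, and 9 fell (32.1%) and 4 rose in WT (median -0.42). Among all genes 13.5% fell in cr and 24.9% in WT. Of 29 spindle and phragmoplast genes 9 fell (31%) and 2 rose in cr, 20 fell (69%) and 1 rose in WT, and 15 were higher and 1 lower in cr at breaker. Of 19 tubulin genes 4 fell (21.1%) and 2 rose in cr, 12 fell (63.2%) and 1 rose in WT, and 10 were higher in cr at breaker, the alpha-tubulin Solyc04g077020 averaging 1152.7 ± 67.9 CPM in cr and 664.7 ± 83.5 CPM in WT there (SD, n = 3 each). Of 28 condensin and cohesin genes 2 fell (7.14%) in cr, and 9 fell (32.1%) and 1 rose in WT. Of 13 spindle checkpoint and aurora kinase genes 1 fell and 1 rose in cr, and 5 fell (38.5%) and 2 rose in WT. Of 17 genes of the anaphase-promoting complex and its activators 3 fell and 2 rose in cr, and 5 fell (29.4%) and 1 rose in WT. Cyclins of other types, such as H, L and T, were balanced. Of 14 tested genes 2 fell and 2 rose in cr, and 3 fell and 3 rose in WT. At breaker 2 of them were higher and 2 lower in cr. The kinase Aurora-2 averaged 17.9 ± 6.78 CPM in cr and 4.03 ± 1.68 CPM in WT at breaker and fell by 2.69 in WT. Fewer cells in a state and less RNA per cell cannot be told apart in these bulk samples.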

How the data were processed

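RNA from tomato fruit pericarp was extracted with Trizol and sequenced on an Illumina NovaSeq, per the labels' protocols. The authors deposited 1 table of raw read counts per gene and FPKM values for 12 libraries, with descriptions and SL4.0 coordinates. Tools listed, without roles, in the submitters' processing notes are edgeR 3.22.5, DESeq2 1.20.0, HISAT2 2.0.5, fastp 0.23.1 and featureCounts 1.5.0-p3. Whether the counting used strand is not stated. FPKM was used only to compare levels between genes.

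Counts were tested with edgeR 4.0.16 (R 4.3.3): TMM factors, filterByExpr with a minimum count of 10 and a minimum total of 15, a quasi-likelihood fit of 4 groups of 3 libraries, and Benjamini-Hochberg adjustment over 19664 genes in each of 5 comparisons. A call is an adjusted p under 0.05, and standard errors are the log2 fold change over the square root of F. Intervals of rare transcripts are exact and cover counting error only. The procedure was tested on simulated counts, where 200 genes were shifted by a log2 of 1 between cr and WT at breaker and 72.5% of them were called. The same shift in the interaction was called for 48.0%. The simulated spread followed the trend over expression level, without scatter of single genes around it. Only 200 of 19664 genes were shifted, fewer than the 2760 higher and 2165 lower called between genotypes at breaker. These shares therefore do not measure recovery in the data. Alternatives were other scalings, DESeq2 1.42.0, other filters, fits of only the groups compared, a replicate block and leaving out each library.

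In each role class the 2 genes with the highest FPKM and up to 4 called each way per comparison with the largest changes could be named, and all cyclins, CDK inhibitors and PCNA. All MCM and ribonucleotide reductase genes are given as complexes, and a few further genes were named after their values were seen: overlapping or neighbouring genes, the unchanged CDKA, and partner genes. Members and lists were chosen with earlier results of these data known.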

Additional observations from a re-analysis of the deposited data

Results flagged for a closer look

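For 23 members the change from mature green to breaker differed between cr and WT by edgeR's interaction test (adjusted p under 0.05). Of the members 9.27% were called higher and 5.96% lower, close to the 8.53% and 4.62% of all genes tested. Values are the log2 change in cr minus that in WT. Groups of 3 libraries were not screened for single outlying samples.

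Among cyclins the difference was 3.52 for D-type cyclin-2 (Solyc01g107730), 2.64 for the D6-1-like gene (Solyc03g006670) and 1.82 for cyclin A3.1 (Solyc12g088530). CDKA-1 (Solyc08g066330) had 1.06, CDK inhibitor 1 (Solyc02g090680) 3.13 and p27KIP1-related protein 2 (Solyc09g061280) -1.64. The ribonucleotide reductase genes gave 1.08 for the large subunit Solyc04g012060, 0.77 for the large subunit Solyc04g051350 and 1.47 for the small chain Solyc02g094160. The polymerase delta subunits gave -0.46 for the catalytic (Solyc10g081250) and -0.39 for the small one (Solyc03g063340).

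Kinesin genes with a positive difference were Solyc11g072820 (KIN-5D, 1.18), Solyc09g010060 (KIN-5C, 1.28), Solyc10g054080 (mitochondrial KIN-7D, 1.45), Solyc04g077540 (KIN-7N, 1.23), Solyc12g005250 (KIN-14N, 1.93) and Solyc04g076310 (KIN-4C, 2.39). The interaction of Solyc12g005250 (adjusted p = 0.0412) was lost in 9 of the 12 fits that left out 1 library, with adjusted p up to 0.106, and with no low-count filter (adjusted p = 0.0559). Those with a negative one were Solyc03g053080 (chloroplastic KIN-7D, -0.82), Solyc03g025470 (KIN-10C, -2.61) and the light chain-related Solyc09g066290 (-0.95). Genes taken by wording alone gave -1.22 for the calcyclin-binding protein Solyc08g016670, -0.67 for the cyclin-D1-binding protein Solyc05g008520 and -0.65 for Solyc03g112570.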

How the results depend on the processing

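Of 152 calls on 69 named members none reversed under any alternative run, 92 were kept in all 12 fits that left out 1 library, and 112 in all other settings apart from the block. DESeq2 kept 149 of them, fits without normalization factors 124, and upper quartile factors 135. The cause of these differences was not tested.

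At mature green the count of members higher in cr was 1 with no low-count filter, and the count lower was 7 by DESeq2, 1 without normalization factors and 5 when only the groups compared were fitted. Of all 19664 genes DESeq2 called 860 lower in cr there, and edgeR 515. At breaker 41 members were higher and 13 lower in cr without normalization factors, with a median of 0.20, and 16 were higher when only the groups compared were fitted. Over the stages 20 members were higher in WT without factors, and the WT median was -0.34 without factors, -0.26 with upper quartile factors and -0.08 with only the groups compared. Without factors the median was -0.12 over the stages in cr and 0.14 for the interaction.

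Leaving out 1 library gave 0 to 2 members higher and 0 to 5 lower in cr at mature green, and 15 to 27 higher and 12 to 23 lower in cr at breaker. The lowest of these at breaker were 12 lower without cr replicate 1, and 15 higher without WT replicate 1 and 16 without WT replicate 2. Over the stages it gave 13 to 23 higher and 12 to 18 lower in cr, with 13 without cr mature green replicate 3, and 27 to 35 higher and 34 to 48 lower in WT (median -0.16 to -0.06). The interaction gave 9 to 14 higher and 5 to 8 lower, the lowest being 9 without mature green replicate 2 of cr or WT and 5 without WT breaker replicate 2, WT mature green replicate 1 or cr mature green replicate 2.

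Same-numbered libraries shared no strong deviation from their group means: 18 correlations between them lay between -0.22 and 0.09. These values cannot tell whether such libraries were collected or processed together, which the labels do not state. With a replicate block 1 member was higher and 1 lower in cr at mature green, and 9 were higher in the interaction.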
